A study of Mus musculus with 2 samples.

Results

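Clusters of distal CHOP peaks were groups of neighbouring binding sites away from gene starts in the liver of tunicamycin-treated mice, and they held 442 of the 14157 CHOP peaks of the study. On chromosomes 1 to 19, 13782 peaks were called, and 7561 of them were distal, with a summit (the highest point of the peak) more than 1 kb from every start site of a protein-coding gene. Distal summits were ordered along each chromosome, neighbours at most 12.5 kb apart were joined, and groups of at least 3 summits were kept as runs. The rule gave 134 runs, and their 442 summits made up 5.85% of the distal summits. Of the remaining distal peaks, 1122 lay in pairs and 5997 were single, and 6221 peaks were promoter peaks, whose summits lay no more than 1 kb from such a start. The members were chosen by the positions of their summits, so the number, spacing and fold of the clustered peaks are descriptions without a test.

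The immunoprecipitated library came from the liver of WT mice given tunicamycin at 1 mg/kg b.w. by intraperitoneal injection for 8 h, with tissue of 3 mice pooled. The Input library carries the same genotype and treatment and enters here through the local background of each peak alone. All values therefore describe 1 pool of animals, without a replicate and without an untreated or CHOP-deficient liver, and say nothing about variation between animals. Strain, sex and age are not given in the sources used here. In whole liver, strong binding in few cells and weak binding in many cells cannot be told apart. Of marker genes of liver cell types, 5 of 7 for hepatocytes (Alb, Ttr, Serpina1a, Cps1 and Hnf4a), 3 of 5 for cholangiocytes (Krt7, Sox9 and Epcam), 2 of 5 for endothelial cells (Pecam1 and Kdr), 1 of 3 for lymphocytes (Ptprc), 0 of 5 for stellate cells and 0 of 5 for Kupffer cells were the nearest gene to a distal summit, against 4885 of all 20722 protein-coding genes (23.6%). The only marker nearest to a run was Hnf4a, and the only one with a promoter peak was the stellate cell marker Reln. A peak is not a measure of expression, and these counts do not establish which cells the peaks came from.

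CHOP is a basic leucine zipper transcription factor of the C/EBP family that is made during the integrated stress response, when unfolded proteins accumulate in the endoplasmic reticulum. It binds DNA as a dimer with other leucine zipper proteins, and dimers of C/EBP and ATF proteins recognise a composite element known as the C/EBP-ATF response element, or CARE. Tunicamycin blocks N-linked glycosylation, on which the secreted proteins of hepatocytes depend, and so causes this stress. Groups of neighbouring binding sites away from promoters are a common feature of enhancers at regulated genes.

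The sequences under several clustered summits are shown because they carry the elements to which the counts of motifs refer. Each is a summit with 50 bp on either side, read on the + strand of GRCm38.p6, the sequence of the authors' build mm10. Capitals mark matches to the composite element TGATGCAA or TGATGNAAT, to the relaxed C/EBP pair TTGCNNAA, or to the AP-1 heptamer TGANTCA, each on either strand, so that TTGCATCA is the composite element read from the other strand. The windows at Rora and Pdia4 and the weaker one at Myc were chosen after their matches were seen, and the others are the strongest summits of their runs.
Atf3, chr1:191254669-191254769: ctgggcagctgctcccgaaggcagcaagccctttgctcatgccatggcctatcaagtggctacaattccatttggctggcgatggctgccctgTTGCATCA
Nfil3, chr13:52976808-52976908: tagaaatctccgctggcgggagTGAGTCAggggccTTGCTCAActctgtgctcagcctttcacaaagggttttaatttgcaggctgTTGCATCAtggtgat
Myc, weaker summit, chr15:62328772-62328872: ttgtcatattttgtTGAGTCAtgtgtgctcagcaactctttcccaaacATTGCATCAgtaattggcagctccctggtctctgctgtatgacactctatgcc
Myc, strongest summit, chr15:62350181-62350281: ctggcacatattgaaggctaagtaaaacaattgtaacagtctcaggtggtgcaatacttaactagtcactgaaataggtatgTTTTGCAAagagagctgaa
Pdia4, chr6:47788935-47789035: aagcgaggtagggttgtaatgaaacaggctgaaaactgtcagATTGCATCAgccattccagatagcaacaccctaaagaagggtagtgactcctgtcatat
Rora, chr9:69319535-69319635: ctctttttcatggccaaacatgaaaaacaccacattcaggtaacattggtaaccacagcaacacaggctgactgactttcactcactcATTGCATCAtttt
Trib3, chr2:152346862-152346962: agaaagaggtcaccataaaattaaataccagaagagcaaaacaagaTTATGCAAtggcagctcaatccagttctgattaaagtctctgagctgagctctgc
Hnf4a, chr2:163535311-163535411: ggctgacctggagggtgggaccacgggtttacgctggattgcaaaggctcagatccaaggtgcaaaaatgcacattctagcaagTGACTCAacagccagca
Id3, chr4:136117229-136117329: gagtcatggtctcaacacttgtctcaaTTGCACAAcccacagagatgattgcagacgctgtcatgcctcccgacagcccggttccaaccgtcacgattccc

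Most clusters were small. Of the 134 runs, 105 (78.4%) held 3 summits, 22 held 4, 4 held 5, 2 held 6 and 1 held 7. The 308 gaps between neighbouring summits had a median of 4443.5 bp and ran from 299 to 12499 bp, and 52 of them (16.9%) were under 1000 bp. A run spanned a median of 11008 bp from its first to its last summit, with a range of 841 to 35891 bp. The joining limit passed through a continuous range of distances: the widest gaps inside runs were 12499, 12467 and 12460 bp, and the narrowest gaps at the edges of runs were 12519, 12809 and 12950 bp.

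**Figure D1:**
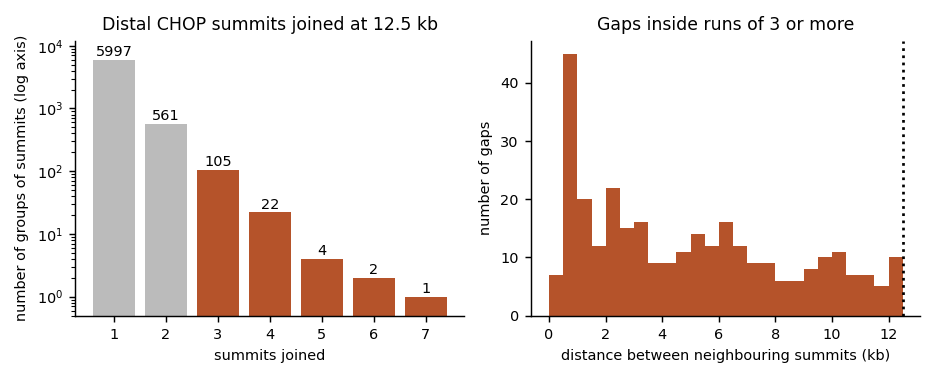
Left, the number of groups of distal summits (log axis) by the number of summits joined, with single summits and pairs in grey and runs of 3 or more in orange. Right, the 308 distances between neighbouring summits inside runs in bins of 0.5 kb, with the joining limit dotted; short distances are the most frequent and the distances run on to the limit.

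The runs were spread over all 19 chromosomes. Chromosome 8 had 13 runs, in which 45 of its 431 distal summits lay (10.4%, 95% Wilson interval 7.90 to 13.7%), and chromosome 4 had 15 runs with 52 of 519 distal summits (10.02%, 7.72 to 12.9%). Chromosome 12 had 1 run with 3 of 343 summits (0.875%, 0.298 to 2.54%) and chromosome 7 had 3 runs with 9 of 436 summits (2.06%, 1.09 to 3.88%). These intervals cover counting error only, and summits of the same run are not independent of one another, so they are too narrow.

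Clustered peaks were of about the same strength as other distal peaks. The authors' fold is the ratio of the pileup of reads at the summit to the local background, with the same constant added to both. It had a median of 7.31 in runs, 6.94 in pairs, 6.75 at single distal summits and 6.65 at promoters. The background was at its floor in 205 clustered peaks (46.4%) and in 46.3% of the distal peaks outside runs. At the floor, fold followed from the number of reads alone. In runs the fold ranged from 3.23 to 61.5. The number of reads at the summit, solved from the deposited fold and p-value, had a median of 11 in runs, 10 in pairs, 9 at single summits and 13 at promoters. Of the clustered peaks, 218 (49.3%) rested on 10 reads or fewer, against 58.5% of the distal peaks outside runs. The precision is correspondingly low: a summit with 7 reads and a fold of 6.0 had an exact Poisson interval of 2.86 to 11.6. Peak width had a median of 276 bp in runs, 260 bp in pairs, 231 bp at single summits and 352 bp at promoters.

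The summits of most runs could not be ranked beyond counting error. In 21 of 134 runs (15.7%) the interval of the strongest summit lay wholly above that of the next, and in 113 runs the intervals overlapped. The strongest fold of a run had a median of 12.3 (3.65 to 61.5), and its ratio to the next highest, which is at least 1 by construction, had a median of 1.504. In 40 runs (29.9%) the strongest fold was at least 2 times the next, and in 65 runs it was less than 1.5 times the next. In 32 runs at least 2 summits had a fold of 10 or more, and in 12 runs every summit rested on 10 or fewer reads. The strongest summits had a median width of 312 bp, against 240.5 bp for the other summits of runs.

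The run with the highest summed fold lay closest to Dhrs3, which encodes an enzyme that reduces retinaldehyde to retinol. Its 4 summits covered chromosome 4, 144949638 to 144960767, and had folds of 61.5 (97 reads), 28.5 (37 reads), 6.0 (7 reads) and 9.0 (11 reads). All 4 were outside protein-coding genes, and the strongest, with an interval of 49.97 to 74.9, was 56830 bp downstream of the Dhrs3 start. The intervals of the 2 strongest summits, 49.97 to 74.9 and 20.3 to 39.0, did not overlap.

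Next came a run around Irf2bp2, which encodes a transcriptional corepressor, with 6 summits on both sides of the start site (chromosome 8, 126583239 to 126596578). The summit at 2433 bp upstream had a fold of 34.3 (25.8 to 44.8), and a summit 10185 bp downstream had 21.3 (15.2 to 29.2). The other 4 had folds between 5.42 and 6.55. Irf2bp2 also had a promoter peak within the same stretch. At Atoh8, a basic helix-loop-helix transcription factor gene, 5 summits covered chromosome 6, 72259156 to 72280892, and were led by a 42.7-fold summit (32.5 to 55.3) in intergenic sequence 24006 bp upstream, with the others between 4.50-fold and 12.47-fold.

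Some runs lay entirely inside their gene. In the introns of Nfil3, which encodes a leucine zipper repressor linked to the circadian clock, the 3 summits had folds of 6.75 (8 reads), 43.6 (58 reads) and 10.8 (29 reads), on chromosome 13, 52974864 to 52978803. The 43.6-fold summit (33.3 to 56.2), 4215 bp downstream of the start, carried the composite element, the relaxed C/EBP pair and an AP-1 match shown above. Rora, the gene of a nuclear receptor of the clock, held the run with the most summits: 7 in its introns over chromosome 9, 69303308 to 69339491. Along the gene their folds were 5.89, 16.5, 7.50, 8.25, 9.75, 4.22 and 7.50, so a single summit was above 10, and the composite element lay at the 8.25-fold summit with 10 reads.

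Compact peaks of high fold led several of the strongest runs. Peaks 290 to 340 bp wide with a fold of at least 20 form a class singled out in earlier work on these data, and they made up 12 of the clustered peaks (2.71%) and 359 of the other distal peaks (5.04%). They were 38.7% of the 31 clustered peaks with a fold of at least 20, led 11 runs, and led 5 of the 10 runs with the highest summed fold: Acsl5, Dnmbp, Xbp1, Scarb2 and Foxk1. In 8 of the 12 at least 50% of the summit window was soft-masked in the reference (interspersed or simple repeats), and in 2 the window's 31-base words occurred more than once in the genome. The earlier work found that the summit of at least 1 peak of this width and fold matched a primate repeat. That match was not repeated here, so whether the folds of these summits measure binding to mouse DNA was not tested. The compact peaks were left out once, after which 124 runs with 409 members remained. All 409 are among the 442 by construction, because leaving peaks out can only split or shorten runs. This count says nothing about the folds of the compact peaks.

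**Figure D2:**
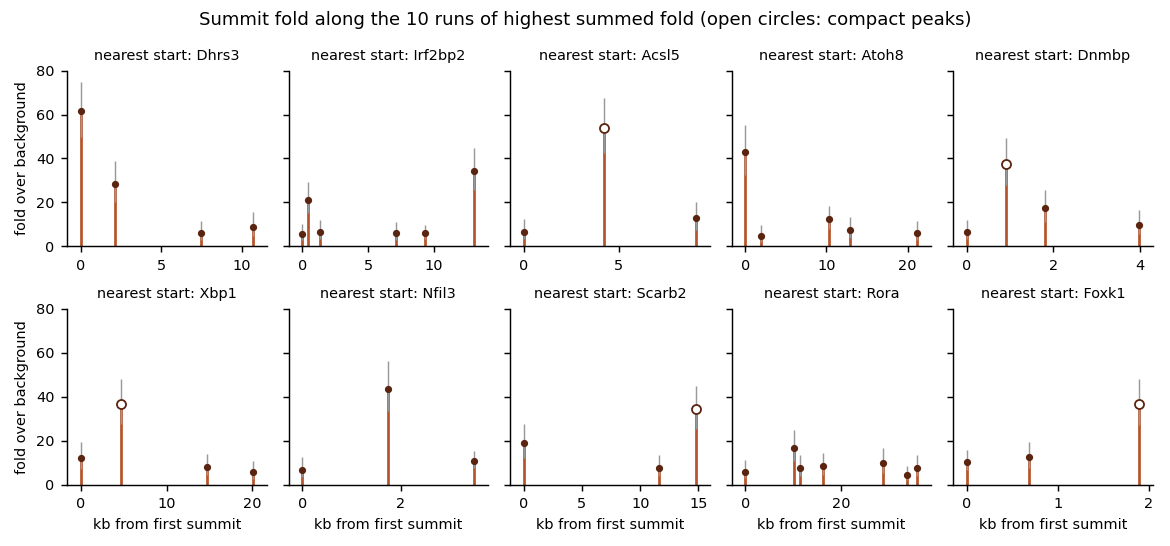
Fold over background at each summit of the 10 runs of highest summed fold, against the distance in kb from the first summit of the run. Points are single summits of the pooled library, bars are 95% exact Poisson intervals for counting error, and open circles mark compact peaks; the strongest summit runs from 16.5-fold at Rora to 61.5-fold at Dhrs3.

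At Acsl5, which encodes a long-chain acyl-CoA synthetase, the compact summit had a fold of 53.8 (42.4 to 67.5, 73 reads), and the other intronic summits had 6.75 and 12.7. At Dnmbp, the gene of a scaffold that activates the small GTPase Cdc42, the compact summit had a fold of 37.5 and the other 3 had 6.72, 17.2 and 9.75. The 6.72-fold summit of Dnmbp lay in sequence whose 31-base words had a median of 2754 copies in the genome. At Scarb2, which encodes a lysosomal membrane protein, the compact summit had a fold of 34.2 and the others 18.7 and 7.50. At Foxk1, a forkhead factor gene, the compact summit had a fold of 36.6, beside 10.4 and 12.48.

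Among genes of the integrated stress response and known targets of CHOP or ATF4, 3 of 26 listed genes were nearest to the strongest summit of a run. For comparison, 130 of all 20722 protein-coding genes on chromosomes 1 to 19 (0.627%) were nearest to a run, and 19 of the 305 genes over all lists (6.23%, Wilson interval 4.02 to 9.52%). Listed genes were also more often nearest to a distal summit of any kind. That held for 15 of the 26 and for 167 of the 305, against 4885 of all 20722 genes (23.6%). The 3 genes were Atf3, Trib3 and Herpud1. The lists were drawn up with earlier results of these data known, so these counts are no independent evidence of a preference.

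At Atf3, a stress-induced leucine zipper factor, the 4 summits lay in intergenic sequence on chromosome 1, 191254490 to 191258399, with folds of 20.2 (26 reads), 12.7 (16 reads), 5.25 (6 reads) and 5.25 (6 reads). The strongest, with an interval of 13.5 to 29.3, was 36680 bp upstream of the start and carried the composite element. At Trib3, which encodes a pseudokinase induced by ATF4 and CHOP, the 3 summits were weak: 5.64-fold (7 reads), 5.10-fold (6 reads) and 5.58-fold (7 reads), the nearest of them 2880 bp upstream, with a promoter peak also present. At Herpud1, a gene of endoplasmic reticulum-associated degradation, the folds were 15 (19 reads), 5.18 (10 reads) and 5.25 (6 reads), with the strongest 14664 bp upstream. The 5.18-fold summit lay in sequence with a median of 47 copies.

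Of 22 genes of endoplasmic reticulum folding and degradation, 2 were nearest to a run. At Xbp1, the transcription factor of the IRE1 branch of the unfolded protein response, 4 summits had folds of 12.2 (16 reads), 36.7 (51 reads), 7.92 (10 reads) and 5.51 (7 reads) on chromosome 11, 5485876 to 5506111. All 4 were upstream, between 14641 and 34687 bp from the start, and the 36.7-fold summit was a compact peak with 69.3% of its window soft-masked. The run nearest to Pdia4, the gene of a protein disulfide isomerase of the endoplasmic reticulum, had folds of 15.2 (20 reads), 5.25 (6 reads) and 6.90 (10 reads). Its strongest summit was 31755 bp downstream of the Pdia4 start, inside a noncoding gene, and the composite element was at the 6.90-fold summit.

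Transcription factors that define the hepatocyte were nearest to a run in 3 of 25 cases. At Hnf4a, the nuclear receptor that maintains hepatocyte identity, the intronic summits on chromosome 2, 163535209 to 163539462, had folds of 17.2 (22 reads), 6.0 (7 reads) and 4.50 (5 reads), and the strongest carried an AP-1 match. At Prox1, a homeobox regulator of liver development, the summits were upstream of the start with folds of 16.1 (29 reads), 4.08 (9 reads) and 5.30 (12 reads), and the gene also had a promoter peak. At Nr5a2, the nuclear receptor LRH-1 that regulates bile acid synthesis, the intronic summits had folds of 6.0, 8.95 and 6.75.

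The list of immediate early genes, AP-1 members and brakes on signalling had 6 of 36 genes nearest to a run: Ier2, Klf9, Btg2, Gadd45a, Zfp36l1 and Myc. At Klf9, a zinc finger factor induced by glucocorticoids, the 3 summits lay between 2513 and 6205 bp upstream, with folds of 23.6 (32 reads), 7.83 (12 reads) and 22.6 (35 reads), the last of them a compact peak. At Btg2, an antiproliferative gene, the folds were 20.9 (31 reads), 7.50 (9 reads) and 3.75 (4 reads). At Zfp36l1, an mRNA decay factor gene, the summits lay within 2687 bp upstream and had folds of 15, 6.39 and 6.81.

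The summits assigned to Myc were far from it. They had folds of 9.82 (14 reads), 6.0 (7 reads), 10.5 (13 reads) and 15.7 (20 reads) on chromosome 15, 62328585 to 62350390, and the strongest was 362809 bp downstream of the start, inside a noncoding gene. At the DNA damage and stress gene Gadd45a the folds were 6.03 (13 reads), 9.31 (12 reads) and 11.4 (15 reads), and the composite element was present at both the 9.31-fold and the 11.4-fold summit. At Ier2, an immediate early gene, the folds were 5.25 (6 reads), 10.04 (15 reads) and 11.3 (17 reads), and the strongest was 1005 bp upstream, at the edge of the distal range.

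Of genes of liver metabolism and secretion, runs were nearest to 1 of 41 secreted plasma protein genes (2.44%), 1 of 42 apolipoprotein and lipid genes (2.38%), 1 of 25 bile acid, P450 and conjugation genes (4.0%) and 0 of 27 genes of glucose, amino acid and urea enzymes, beside 0.627% of all genes. Counts of 0 or 1 cannot show whether these lists differ from all genes or from the other lists. At Abca1, the cholesterol efflux transporter, the 4 summits inside the gene had folds of 9.75, 7.50, 10.5 and 4.82 (12, 9, 13 and 7 reads). The run at Orm3, an acute-phase orosomucoid gene, also covered Orm1 and had folds of 8.25, 17.1 and 6.0. The orosomucoid genes are close copies of one another, but the 31-base words at these 3 summits had a median of 1 copy in the genome.

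At Cyp8b1, which encodes the enzyme that sets the share of cholic acid among bile acids, the summits had folds of 6.75 (8 reads), 16.9 (36 reads) and 11.9 (32 reads). The 16.9-fold and 11.9-fold summits lay in sequence whose 31-base words had a median of 3809 copies in the genome, so the placement of those reads is uncertain. The clock list had 2 of 20 genes, Rora and Nfil3. None of 25 genes of other liver cell types and none of 18 neuronal and olfactory genes was nearest to a run, beside 0.627% of all genes. Their Wilson intervals, 0 to 13.3% and 0 to 17.6%, include that share. Counts of 0 in lists this short cannot show a difference from all genes.

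Several long runs lay at genes outside these lists. Id3, which encodes an inhibitor of basic helix-loop-helix factors, had 6 summits on chromosome 4, 136117135 to 136148396, with folds of 16.7 (22 reads), 6.24, 6.24, 5.25, 6.04 and 6.60. Its strongest summit, 26218 bp upstream, carried the relaxed C/EBP pair. At Aldh8a1, an aldehyde dehydrogenase gene, 5 intergenic summits more than 60 kb downstream had folds of 6.75, 12.7, 12.7, 5.25 and 7.50. Uox, the peroxisomal urate oxidase gene, held 4 summits with folds of 6.90, 9.0, 7.50 and 5.25, of which the last 2 also lay in an overlapping stretch of Dnase2b. A further 4 summits, with folds of 6.75, 11.2, 6.0 and 4.50, lay in introns of Bach2, a leucine zipper repressor gene, although the nearest start site was that of Gja10.

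The nearest gene was a rough guide to position. In 49 runs (36.6%) all summits lay inside 1 protein-coding gene, in 115 runs all summits had the same nearest gene, and the 134 runs named 130 different genes. The strongest summit was upstream of its nearest start site in 77 runs and downstream in 57, at a median distance of 16524.5 bp and a maximum of 419413 bp. A gene can have several start sites, so a summit upstream of the nearest one can still lie inside the gene. At Hnf4a, for example, the strongest summit was intronic and 11826 bp upstream of its nearest start site. Introns held 44.1% of clustered summits against 44.8% of other distal summits, a difference of -0.68 percentage points (95% Newcombe interval -5.38 to 4.12). Intergenic sequence held 39.4% against 40.7% (difference -1.37 points, -5.96 to 3.40), and both intervals include 0.

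Genes nearest to a run more often had a promoter peak of their own. Over all protein-coding genes, 6015 of 20722 (29.0%) had a CHOP peak within 1 kb of a start site. Of the 130 genes nearest to a run, 83 did (63.8%, Wilson interval 55.3 to 71.6%), against 48.9% of 581 genes nearest to a pair and 39.7% of 4156 genes nearest to single summits alone. The difference was 14.97 points against pairs (Newcombe interval 5.50 to 23.7) and 24.1 points against single summits (15.4 to 32.0). Promoter summits took no part in the choice of runs. In 43 runs (32.1%) a promoter peak, of the nearest gene or of another gene, lay within 12.5 kb of a clustered summit. This share was not counted for pairs or single summits. The groups of genes nearest to runs, pairs and single summits were not matched for any other property. They were also assigned differently: a run gave the gene nearest to its strongest summit, and a pair gave the genes nearest to either summit.

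**Figure D3:**
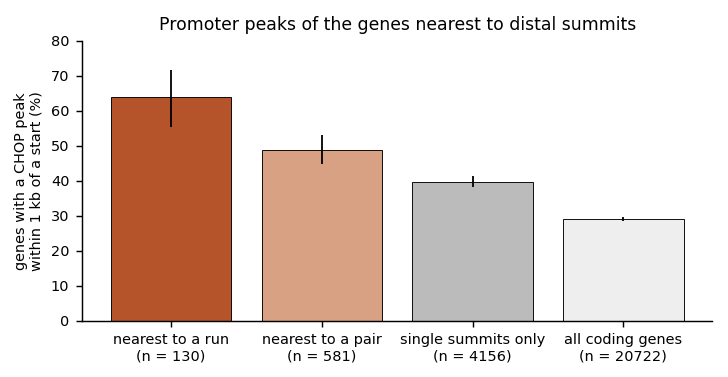
Share of genes with a CHOP peak within 1 kb of a start site (bars, in percent, from 0) by the kind of distal summit nearest to them, with 95% Wilson intervals for counting error. The share is 63.8% for genes nearest to the strongest summit of a run and 48.9% for genes nearest to either summit of a pair. It is 39.7% for single summits and 29.0% for all protein-coding genes.

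The sequence of clustered summits was less repetitive than that of other distal summits. At least 50% of the summit window, 50 bp on either side of the summit, was soft-masked in 86 of 442 clustered peaks (19.5%), against 33.0% of 7119 other distal peaks, a difference of -13.6 points (Newcombe interval -17.2 to -9.47). The share was 24.6% in pairs and 34.6% at single summits. Windows whose 31-base words occurred more than once in the genome made up 7.01% of clustered and 11.3% of other distal peaks (difference -4.28 points, -6.45 to -1.42). At least 1 CpG was present in 70.1% against 61.8% (difference 8.30 points, 3.74 to 12.53). The median GC share of the window was 48.5% in runs, 48.5% in pairs, 46.5% at single summits and 74.3% at promoters.

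C/EBP elements were more frequent at the clustered summits than 500 bp away. The 18 motifs were chosen with earlier results of these data known, so the p-values are no independent evidence of a preference. The composite element TGATGCAA lay within 50 bp of 29 of 442 summits (6.56%), against 2 of 442 windows of the same length 500 bp away (0.452%; exact McNemar test, two-sided, adjusted p = 8.33e-06 by Benjamini-Hochberg over 18 motifs). The pattern TGATGNAAT was found at 17 against 2 (3.85% against 0.452%, exact McNemar adjusted p = 0.00437), and the relaxed pair TTGCNNAA at 41 against 12 (9.28% against 2.71%, exact McNemar adjusted p = 7.35e-04). A stretch can match both composite patterns, so their counts share summits. Matches were sought on both strands, and among promoter peaks of the same window length 0.820%, 0.707% and 2.14% held these 3 patterns.

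The nuclear receptor hexamer AGGTCA was the fourth motif above the threshold, at 50 summits (11.3%) against 25 control windows (5.66%; exact McNemar adjusted p = 0.0138), and it fell short of the threshold with the control window 500 bp on the other side (exact McNemar adjusted p = 0.151) or 5000 bp away (0.374). In all, 4 of 18 motifs (22.2%) were higher at the summits and 0 were lower at an adjusted p under 0.05, and no motif was lower at an unadjusted p under 0.05 either. The AP-1 heptamer TGANTCA was at 22 summits (4.98%) and 14 control windows (3.17%, exact McNemar adjusted p = 0.590). The forkhead core TGTTTAC, bound by FOXA pioneer factors of the liver, was at 9 summits and 9 control windows, and CCAAT at 43 and 62 (exact McNemar adjusted p = 0.252). With the strongest summit of each run alone, 1 motif passed, the composite element TGATGCAA (exact McNemar adjusted p = 0.0352). Summits of a run share their neighbourhood, and 6 of the control windows contained another summit.

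**Figure D4:**
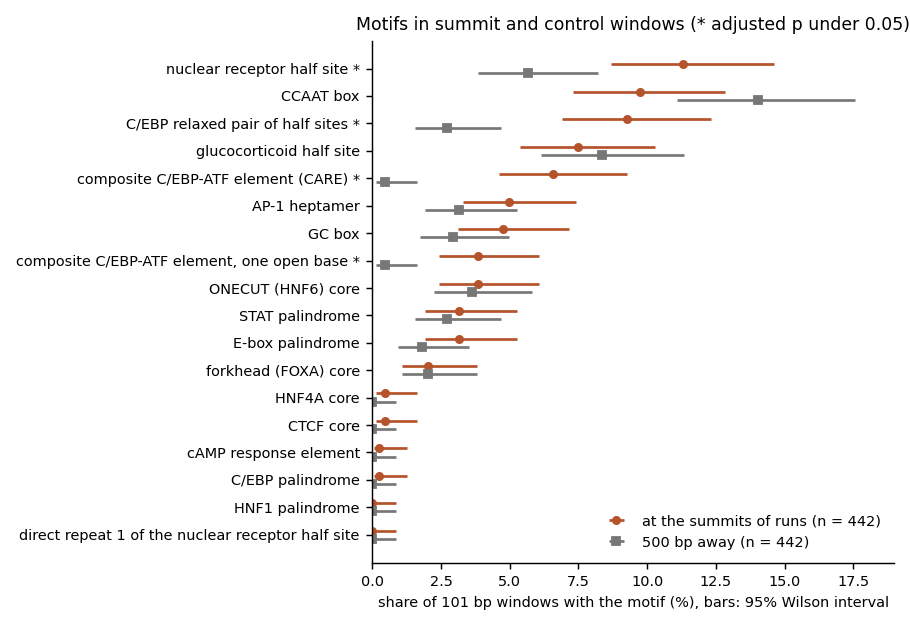
Share of windows of 50 bp on either side with each of 18 motifs, at the clustered summits (circles) and 500 bp away (squares), in percent with 95% Wilson intervals. An asterisk marks an adjusted p under 0.05; the composite element stands at 6.56% at summits against 0.452% away from them.

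Set against the other distal summits, the differences in motifs were small. The composite element TGATGCAA was 1.80 percentage points more frequent at clustered summits, 6.56% against 4.76%, with a Newcombe interval of -0.22 to 4.54 that includes 0. Its other pattern TGATGNAAT was slightly less frequent (3.85% against 4.10%, difference -0.256 points, interval -1.77 to 2.01). TTGCNNAA was 3.12 points more frequent (9.28% against 6.15%, interval 0.688 to 6.24), AGGTCA 3.25 points (11.3% against 8.06%, interval 0.543 to 6.60), and the E-box palindrome CACGTG 1.45 points (3.17% against 1.71%, interval 0.140 to 3.55). These intervals are from 18 motifs and were not adjusted for their number.

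**Figure D5:**
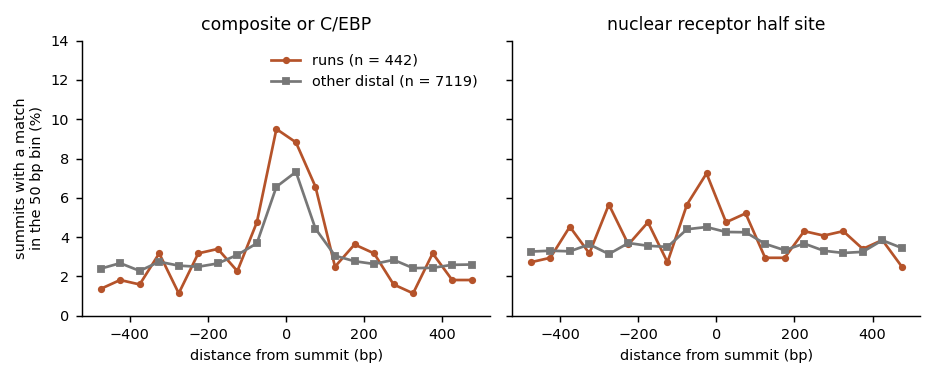
Share of summits with a match in each 50 bp bin, by the distance of the bin from the summit, for runs (circles) and other distal peaks (squares, 7119 summits). Composite or C/EBP matches peak at the summit, at 9.50% and 8.82% of clustered summits in the central bins against 6.56% and 7.32% of other distal summits. Nuclear receptor matches are at 7.24% and 4.75% in the central bins against 4.51% and 4.26%. Away from the central bins they reach up to 5.66% of clustered summits.

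Motifs were spread thinly over the runs. A composite or C/EBP match lay at 75 of the 442 summits (17.0%), in 60 of the 134 runs (44.8%), and at 2 or more summits in 14 runs. Each run has at least 3 summits that could match, and no background was computed for the share of runs. By fold, 11.8% of clustered summits matched under 5, 17.7% from 5 to 10, 18.1% from 10 to 20 and 16.1% at 20 or more. At the other distal summits the shares were 6.96%, 12.8%, 17.8% and 12.6%. Matches were present at 20.1% of the strongest summits (Wilson interval 14.2 to 27.7%) and at 15.6% of the other summits of runs (12.0 to 20.1%), and these intervals overlap. Summits with a match had a median fold of 8.25 and those without had 6.95. The share with a match did not rise steadily with fold, and 26 of the 31 clustered summits with a fold of at least 20 had none. The composite element by either pattern was at 36 summits in 33 runs. It was at 2 summits in 3 runs, those at Gadd45a, Tsku and Fto, and all 3 names were chosen after their values were seen.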

How the data were processed

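CHOP ChIP-seq was measured in 1 immunoprecipitated library; no processed file of the Input was used here. Per the labels' protocols, Bowtie placed single-end reads on mm10 with up to 2 mismatches, reads stacked beyond 2 per position and strand were removed, SAMtools 1.9 and Sambamba 0.7.1 served for filtering, and MACS2 2.1.2 called the peaks with its defaults. The depth of the library is unknown.

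The deposited columns are fold, −log10 p-value, −log10 q-value, score and summit offset. Fold is the authors' own value, the ratio of pileup to local background with the same constant added to both. It was used to describe, rank or filter peaks. The deposited score was within 1 of 10 times −log10 q and was not used. Whole-number reads were solved from fold and −log10 p for all 14157 peaks (largest residual 3.13e-05, tolerance 0.0001). Intervals are 95% and cover counting error only, since reads carry no molecular identifiers: exact Poisson for reads, carried to fold with the background held fixed, Wilson for shares and Newcombe for differences of shares.

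GENCODE M21 gave the protein-coding start sites and GRCm38.p6 the sequence. A run was assigned to the gene whose start was nearest to its strongest summit. Motifs, spelled out by exact letters on both strands, were sought within 50 bp of summits and in 101 bp windows 500 bp above them. Scripts were tested on simulated data. Python 3.11.15, numpy 2.4.6, pandas 2.3.3, scipy 1.17.1, numba 0.67.0 and matplotlib 3.10.9 were used. The members, gene lists and motifs were chosen with earlier results of these data known. Runs named are the 10 of highest summed fold, the 5 with most summits, the 5 of longest span and up to 4 per gene list; any other name is marked as such. Alternatives changed the joining distance, run size, distal distance, start sites, peak threshold, repeats, motif window and control.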

Additional observations from a re-analysis of the deposited data

How the results depend on the processing

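The number of runs and of clustered peaks follows the rule that defines them, and 52 of 141 values tried under 21 alternatives moved by more than 1.5 times or beyond their interval, while 89 did not. Joining at 5000 bp gave 44 runs with 143 peaks (1.89% of distal summits), 15 runs inside 1 gene, 16 with a promoter peak nearby, 9 listed genes, a median width of 293 bp and 0 motifs past the threshold. Joining at 25000 bp gave 247 runs with 850 peaks (11.2%) and 87 runs with a promoter peak nearby. Runs of 4 or more numbered 29 with 127 peaks (1.68%), 9 inside 1 gene, 8 with a promoter peak nearby, 5 listed genes, a median width of 293 bp and 0 motifs. Peaks with −log10 q of at least 5 gave 71 runs with 230 peaks (4.32%), 30 inside 1 gene, 20 with a promoter peak nearby, 11 listed genes, a median fold of 8.25, a median width of 299 bp and 2 motifs. Peaks at or above the median fold gave 33 runs with about 1.0e+02 peaks (2.57%), 14 inside 1 gene, 8 with a promoter peak nearby, 6 listed genes, a median fold of 9.75, a median width of 309 bp and 0 motifs, and the composite element was then 0.65 points less frequent than at other distal summits (difference -0.65). A fold of at least 5 gave a median fold of 7.69 and 5.08% of distal summits in runs. Distal summits more than 3000 bp from a start gave 4.86%, 22 runs with a promoter peak nearby and 12 listed genes. Start sites of all transcripts gave 5.07%. Without summit windows at least 50% soft-masked there were 80 runs with 260 peaks (5.07%), 28 inside 1 gene, 22 with a promoter peak nearby and 12 listed genes. With the strongest summit of each run alone 1 motif passed. Fewer windows entered the motif tests under the settings with 0 motifs, and the composite element TGATGCAA then stood 5.94 to 7.69 points above its control.

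An alternative chosen after seeing the data, without summits in repeated 31-base words, left 113 runs with 371 peaks, and no value moved. Of 68 motif values, 45 kept their side of the threshold, 23 no longer passed it and 0 reversed. Of the clustered peaks, 218 rest on 10 or fewer reads, and the depth of the library is unknown. No paired analysis was possible because the study has 1 immunoprecipitated library and no groups that share replicate numbers.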

Other observations

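A run close to the start of the assembled sequence of chromosome 9, chosen after its values were seen and nearest to Gm11168, had 4 summits between 3002005 and 3022589 with folds of 12.7, 11.01, 6.45 and 7.80 on 31, 26, 8 and 14 reads. The 31-base words of its windows had medians of 38, 53, 5 and 13 copies in the genome, and the stretch also held promoter peaks of 6 predicted genes. It was the 1 run with repeated words at every summit, and 25 runs had them at 1 summit or more. At a run nearest to Sfi1, 5 summits within 5 kb had high read numbers and low folds, 27, 25, 53, 23 and 33 reads for folds of 5.29, 3.58, 4.21, 3.99 and 6.12. The Sfi1 run was also chosen after its values were seen.

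The runs nearest to Fto and Tsku were also chosen after their values were seen. In the introns of Fto the folds were 6.0 (7 reads), 38.2 (50 reads) and 6.0 (7 reads). Upstream of Tsku, which encodes a secreted protein made in liver, the folds were 6.67 (9 reads), 6.0 (7 reads) and 13.5 (17 reads).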
